A study of Drosophila melanogaster with 2 samples.

Results

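The genes described here encode the proteins of the cytoplasmic ribosome of Drosophila melanogaster. They were taken from the Ensembl annotation as the protein-coding genes whose symbol starts with RpL or RpS followed by a digit or P, together with sta. Mitochondrial ribosomal protein genes, S6 kinase genes and a ribosomal protein gene not reported here were left out. This gave 92 of 13945 protein-coding genes on the 6 chromosome arms, of which 53 were named for the large subunit and 39, sta included, for the small subunit. The choice rests on gene names, so it also holds paralogs and genes such as RpLP0-like and RpL24-like that are only named after a ribosomal protein.

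The sites at which Corto sits on chromatin were mapped by ChIP-seq, which sequences the DNA that an antibody pulls down together with the protein. The single group was the transgenic line corto-GFP, which stably carries Corto with a green fluorescent protein (GFP) tag at its C terminus, and precipitation used an antibody against GFP. Per the labels, whole embryos of pooled males and females aged 0 to 24 h gave 2 biological replicates, so all embryonic cell types are averaged and no condition is compared. The labels do not name the promoter that drives the fusion. The deposited values are peak positions and signals without read counts, so the depth of either replicate is unknown.

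Each ribosome needs a single copy of most of its proteins, and the genes for them are transcribed strongly and together in growing cells. In flies many of their promoters start transcription at a pyrimidine-rich sequence called the TCT initiator, which is used with the TBP-related factor Trf2, and the factors M1BP and Dref bind upstream of some of them. Corto is a chromodomain protein of the group called Enhancers of Trithorax and Polycomb, which act in both the maintenance and the silencing of homeotic genes.

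The following stretches, read 5′ to 3′ on the strand of the gene from the RefSeq genome of the dm6 assembly, run from 150 bases upstream of the transcription start site (TSS) with the most annotated transcripts (140 for RpS27) to the first 20 bases of the transcript. They cover the member with the strongest promoter summit (RpL34b, chr3R:9401207-9401376, minus strand), the strongest of the small subunit (RpS27, chr3R:25247495-25247654, minus strand), the bound member that holds the 3 motifs below together (RpL27, chr3R:25685032-25685201, minus strand), the bound member with the shortest distance between an upstream summit and the TSS (RpL10Ab, chr3L:11822701-11822870, plus strand), a gene of the P stalk (RpLP1, chr2L:419802-419971, plus strand), a copy of a gene pair whose other copy lacked a pooled summit (RpS19a, chrX:16637744-16637913, plus strand) and the weakest bound member (RpL8, chr3L:2587306-2587475, plus strand). Capitals mark the TCT initiator within 20 bases of the TSS (TCTTTC on the sense strand, also with C as its first base, T as its last base, or both), the DRE (TATCGAT, either strand), which Dref binds, and the M1BP motif (GGTCACAC, either strand).
RpL34b: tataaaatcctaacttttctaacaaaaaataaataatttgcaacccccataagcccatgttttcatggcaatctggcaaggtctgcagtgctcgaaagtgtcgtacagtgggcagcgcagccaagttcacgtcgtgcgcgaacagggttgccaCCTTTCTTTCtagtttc
RpS27: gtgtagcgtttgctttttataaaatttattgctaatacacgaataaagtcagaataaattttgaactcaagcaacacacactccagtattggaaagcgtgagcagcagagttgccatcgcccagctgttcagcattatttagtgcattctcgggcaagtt
RpL27: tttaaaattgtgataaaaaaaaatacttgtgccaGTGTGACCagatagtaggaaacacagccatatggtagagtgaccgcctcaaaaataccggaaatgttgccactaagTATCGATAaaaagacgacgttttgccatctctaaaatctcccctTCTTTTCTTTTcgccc
RpL10Ab: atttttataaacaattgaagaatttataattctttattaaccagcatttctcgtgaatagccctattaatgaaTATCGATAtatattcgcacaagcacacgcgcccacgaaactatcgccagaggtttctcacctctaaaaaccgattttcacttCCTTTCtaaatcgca
RpLP1: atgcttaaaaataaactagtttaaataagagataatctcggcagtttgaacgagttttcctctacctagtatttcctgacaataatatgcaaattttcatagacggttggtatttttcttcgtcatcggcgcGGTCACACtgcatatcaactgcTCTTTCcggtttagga
RpS19a: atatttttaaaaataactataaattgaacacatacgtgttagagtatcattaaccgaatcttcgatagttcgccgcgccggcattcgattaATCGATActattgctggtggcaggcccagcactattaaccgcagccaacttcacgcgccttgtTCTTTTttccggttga
RpL8: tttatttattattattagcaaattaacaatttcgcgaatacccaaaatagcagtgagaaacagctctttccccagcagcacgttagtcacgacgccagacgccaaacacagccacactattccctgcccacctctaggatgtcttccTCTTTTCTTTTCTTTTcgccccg
In RpL27 the M1BP motif began 116 bases upstream of the annotated start, the DRE 40 bases upstream and the first TCT initiator at base 5 of the transcript. In RpL10Ab the DRE began 77 bases upstream and the TCT initiator at base 6. RpS27 held none of these motifs.

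Corto-GFP summits lay at the promoters of 19 of the 92 ribosomal protein genes (20.7%, 95% Wilson interval 13.6 to 30) in the optimal peak set, against 9.9% of all protein-coding genes. The optimal set is the authors' list of 2644 peaks that passed the irreproducible discovery rate, a threshold on how alike both replicates rank a peak, and it equals the strongest 2644 of 30000 entries in the list called on the pooled replicates. A gene was called bound where a summit lay within 500 bp of any of its TSSs. In the strongest 5000 pooled entries 33 members had such a summit (35.9%, all genes 16.1%), in the strongest 10000 there were 49 (53.3%, all genes 24.1%) and in the whole pooled list 63 (68.5%, interval 58.4 to 77.1, all genes 39.1%). The members therefore divide into 19 with an optimal summit, 44 with a weaker pooled summit only and 29 with none. The intervals cover counting error only and treat the genes as independent, and no test was run over the members.

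**Figure D1:**
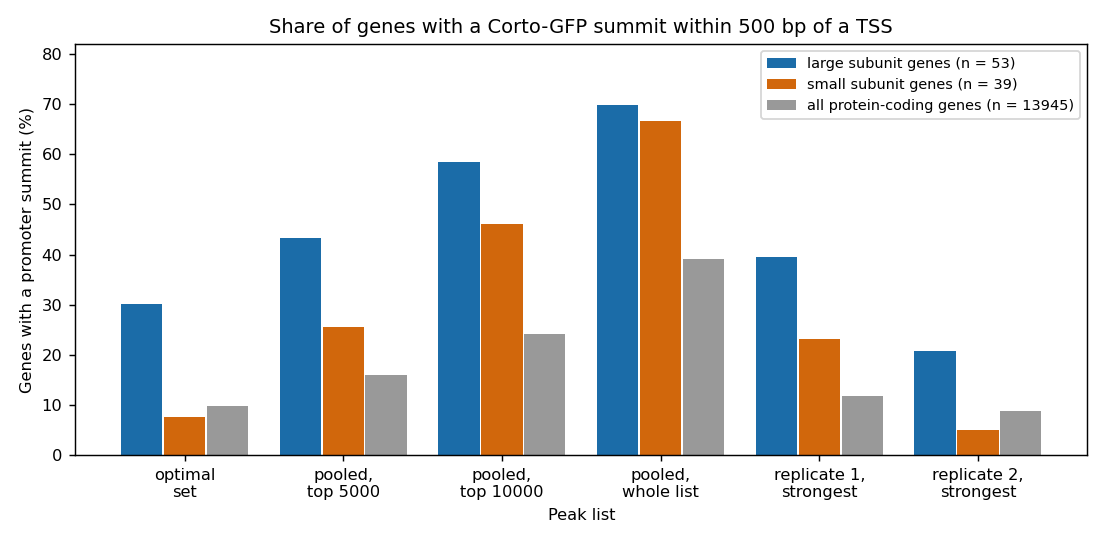
Share of genes (%, y axis) with a summit within 500 bp of a TSS in each peak list (x axis), for 53 large subunit genes, 39 small subunit genes and all 13945 protein-coding genes. Bars are counts over genes without error bars; in the optimal set the large subunit reached 30.2% and the small subunit 7.69%, while in the whole pooled list they stood at 69.8% and 66.7%.

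The strong summits belonged mostly to large subunit genes. Bound were 16 of 53 large subunit genes (30.2%) and 3 of 39 small subunit genes (7.69%) in the optimal set, where all genes stood at 9.9%. The small subunit value rests on 3 genes, and its place relative to all genes turned with the list. In the strongest 2644 entries of the replicate 1 list there were 9 (23.1%, all genes 11.8%). With weaker peaks the subunits drew together, at 23 (43.4%) and 10 genes (25.6%) in the strongest 5000 entries, 31 (58.5%) and 18 (46.2%) in the strongest 10000 and 37 (69.8%) and 26 (66.7%) in the whole list. The median signal of the strongest pooled promoter summit was 75.6 for 37 large subunit genes and 51.3 for 26 small subunit genes, against 48.8 for all 5454 genes with one. In the optimal set the order was the other way, with a median of 103.1 for the 19 bound members and 119.9 for all 1381 bound genes. The highest signals there were 206.8 and 678.9. Signals are the authors' own peak values on an unstated scale, so they were compared within a list only. The difference between subunits was not tested.

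The 8 strongest members lay within the first 1322 ranks of the optimal set. RpL34b, 1 of a pair of genes for the large subunit protein L34, had its summit at 3R 9401405, 179 bp upstream of its nearest TSS, with a pooled signal of 206.8 at rank 316, and signals of 87.9 (rank 550) and 113.9 (rank 286) in replicates 1 and 2. Both replicates ranked it high. RpL7 was bound at 2L 10201008, 4 bp downstream of its TSS in the untranslated first exon, with a pooled signal of 194.3 at rank 374 and replicate signals of 91.8 (rank 489) and 104.3 (rank 361). RpL41, which encodes the smallest ribosomal protein, had a summit at 2R 24903963, 28 bp upstream, with a pooled signal of 173.6 at rank 502 and replicate signals of 82.3 (rank 657) and 91.8 (rank 502). Each of these was placed among the strongest 1000 entries by both replicates.

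RpL13 and RpL19 had summits that lay nearer to another gene. For RpL13 the summit at 2L 9967266 was 47 bp upstream of its nearest TSS and 37 bp from that of Dref, with a pooled signal of 162.5 at rank 583 and replicate signals of 72.0 (rank 885) and 93.0 (rank 476). For RpL19 it was at 2R 24969626, 79 bp upstream and 52 bp from CG3776, with a pooled signal of 149.1 at rank 710 and replicate signals of 94.5 (rank 456) and 59.0 (rank 1548). RpS27 was the strongest small subunit gene, with a summit at 3R 25247580, 66 bp upstream, a pooled signal of 145.6 at rank 756 and replicate signals of 77.4 (rank 750) and 73.7 (rank 892). RpL27, whose promoter is printed above, was bound at 3R 25685105, 54 bp upstream, with a pooled signal of 137.9 at rank 848 and replicate signals of 52.5 (rank 1773) and 82.9 (rank 668). RpL27 was placed higher by replicate 2 and RpL19 by replicate 1.

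The remaining 11 bound members had pooled signals of 107.4 or less. RpS23, which encodes a protein near the decoding centre of the small subunit, had its summit at 2R 14216623, 4 bp downstream of the TSS in an untranslated exon, with a pooled signal of 107.4 at rank 1460 and replicate signals of 60.1 (rank 1327) and 44.9 (rank 2823). RpL28 was bound at 3L 3223196, 236 bp upstream and 145 bp from the translation initiation factor gene eIF1, with a pooled signal of 103.1 at rank 1589 and replicate signals of 66.2 (rank 1070) and 27.9 (rank 7113). RpL10Ab encodes the protein of the L1 stalk, the mobile arm by which deacylated tRNA leaves the ribosome. Its summit at 3L 11822846 was 5 bp upstream, with a pooled signal of 101.6 at rank 1636 and replicate signals of 51.5 (rank 1855) and 48.3 (rank 2393). Replicate 1 placed all 3 of these members higher than replicate 2.

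The P stalk, the flexible arm of the large subunit that recruits the translation GTPases, is built from the products of RpLP0, RpLP1 and RpLP2, and all 3 genes were bound with signals in the lower part of the optimal set. RpLP2 had its summit at 2R 16585691, 438 bp upstream and the farthest of the 19, with a pooled signal of 92.6 at rank 1997 and replicate signals of 42.0 (rank 2869) and 46.7 (rank 2585). RpLP1 was bound at 2L 419836, 116 bp upstream, with a pooled signal of 84.5 at rank 2437 and replicate signals of 62.0 (rank 1244) and 24.8 (rank 8847). RpLP0 had a summit at 3L 22075999 in an intron, 93 bp upstream of its downstream TSS, with a pooled signal of 82.9 at rank 2543 and replicate signals of 38.5 (rank 3463) and 48.3 (rank 2391). Replicate 1 ranked RpLP1 higher, and replicate 2 the other 2. RpLP0-like, a gene named after RpLP0, had a pooled summit only, with a signal of 48.1 at rank 6997.

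The other large subunit genes near the lower end were RpL18, RpL14, RpL37A and RpL8. RpL18 (3L 7241464, 113 bp upstream) had a pooled signal of 89.9 at rank 2120 and a replicate 1 signal of 36.3 (rank 3905), with no replicate 2 summit within 200 bp. It was the single bound member that 1 replicate list lacked. RpL14 (3L 8600947, 59 bp upstream) had a pooled signal of 84.3 at rank 2444 and replicate signals of 46.9 (rank 2253) and 32.1 (rank 5485). RpL37A (2L 5070909, 48 bp upstream) had a pooled signal of 84.0 at rank 2466 and replicate signals of 55.7 (rank 1547) and 31.0 (rank 5878). RpL8, whose protein lies close to the peptidyl transferase centre, was bound at 3L 2587256, 200 bp upstream, with a pooled signal of 81.2 at rank 2643 and replicate signals of 46.8 (rank 2262) and 36.9 (rank 4220). In the small subunit RpS19a (X 16637779, 115 bp upstream) completed the set with a pooled signal of 81.8 at rank 2606 and replicate signals of 47.0 (rank 2241) and 43.2 (rank 3094); mutations of its human counterpart cause Diamond-Blackfan anaemia. Replicate 1 ranked each of the 4 with a summit in both lists higher than replicate 2.

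**Figure D2:**
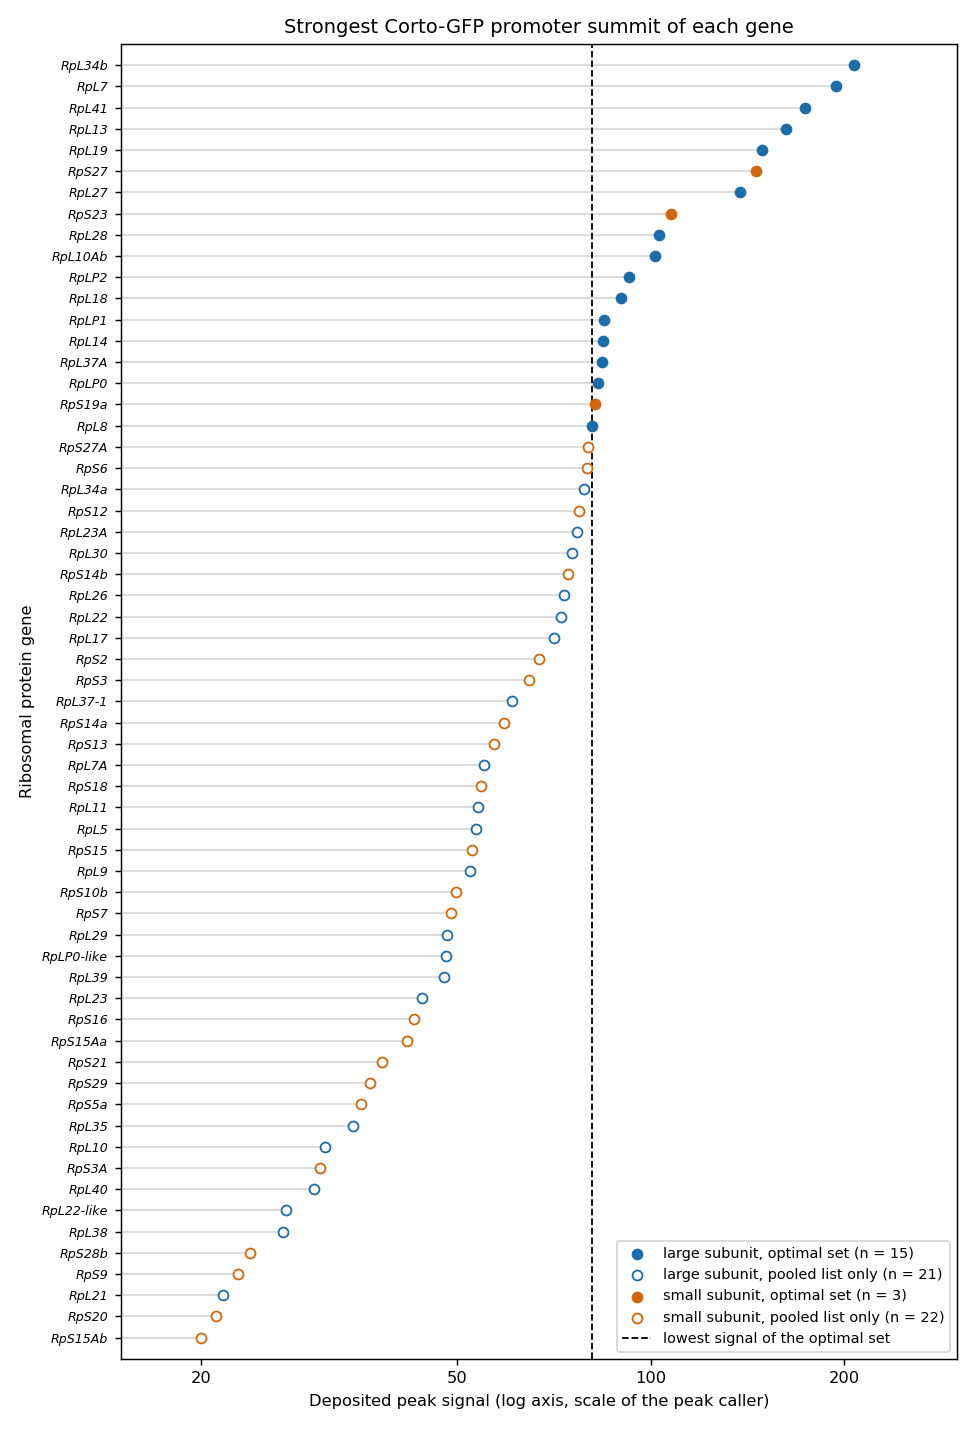
Deposited pooled peak signal (log x axis, scale of the peak caller) of the strongest promoter summit of 61 ribosomal protein genes with one (y axis). Filled points are in the optimal set and open points in the pooled list only, colours give the subunit, and the dashed line is the lowest optimal signal of 81.2; 15 of the 18 filled points are large subunit genes.

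Just below the lowest optimal signal of 81.2 genes of both subunits followed closely. The 10 strongest of the 44 members with a pooled summit only were RpS27A, RpS6, RpL34a, RpS12, RpL23A, RpL30, RpS14b, RpL26, RpL22 and RpL17, with signals from 80.0 down to 70.7 and ranks from 2723 to 3502. RpS27A, which is made as a fusion with ubiquitin, had a pooled signal of 80.0 and replicate signals of 40.9 (rank 3037) and 42.2 (rank 3226). RpS6, whose protein is the substrate of S6 kinase, had a pooled signal of 79.7 and replicate signals of 45.4 (rank 2400) and 36.8 (rank 4240). For RpL34a the values were 78.9 in the pooled list and 51.9 (rank 1827) in replicate 1, with no replicate 2 summit. RpS12 stood at 77.5, with 44.8 (rank 2464) and 41.8 (rank 3295) in the replicates, and RpL23A, at the exit of the nascent peptide tunnel, at 76.9, with 39.1 (rank 3329) and 40.9 (rank 3443). RpL30 was the strongest of the 44 in replicate 1, with 67.5 (rank 1013) against a pooled signal of 75.6, and no replicate 2 summit lay within 200 bp of the pooled one. Among weaker summits were both large subunit proteins that bind 5S rRNA, RpL11 (signal 53.9) and RpL5 (53.6), and the gene on arm 4, RpS3A (30.6). The weakest was RpS15Ab, at rank 29250.

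No pooled promoter summit was found for 29 members. In the large subunit these were RpL3, RpL4, RpL6, RpL10Aa, RpL13A, RpL15, RpL24, RpL24-like, RpL27A, RpL31, RpL32, RpL35A, RpL36, RpL36A, RpL37-2 and RpL7-like, which include genes for proteins of the peptidyl transferase region (RpL3) and the peptide exit tunnel (RpL4). In the small subunit they included RpS4, RpS5b, RpS10a, RpS19b, RpS24, RpS25, RpS26, RpS28-like, RpS28a, RpS30 and sta. The sta gene, stubarista, had a replicate 1 summit with a signal of 28.4 at rank 6297 and none in replicate 2. A summit of at least 1 replicate was present for 18 of the 29 (62.1%, against 30.4% of the 8491 genes with no pooled summit), and 11 members had no promoter summit in any of the lists (12%, against 42.4% of all genes). They included RpL10Aa, RpL24-like, RpL36A, RpL37-2, RpL4, RpL6, RpS10a, RpS28-like, RpS28a and RpS5b.

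Replicate 1 placed more members among its strong peaks than replicate 2. Taking the strongest 2644 entries of each, replicate 1 had a promoter summit at 30 members (32.6%, all genes 11.8%) and replicate 2 at 13 (14.1%, all genes 8.78%), and 10 members were in both (10.9%, all genes 6.37%). Large subunit genes led in each replicate, with 21 of 53 (39.6%) against 9 of 39 (23.1%) in replicate 1 and 11 (20.8%) against 2 (5.13%) in replicate 2. In the whole lists of 30000 entries 77 members (83.7%, all genes 48%) had a replicate 1 summit and 57 (62%, all genes 37.7%) a replicate 2 summit. There the small subunit stood higher than the large in replicate 1, at 87.2% against 81.1%, and lower in replicate 2, at 56.4% against 66%. Of the 19 bound members 18 had a summit within 200 bp in both replicate lists (94.7%, all bound genes 94%). Both replicates placed 9 of the 19 among their strongest 2644 (47.4%, all bound genes 56.8%), replicate 1 placed 16 (84.2%, all bound genes 79.4%) and replicate 2 placed 11 (57.9%, all bound genes 71.5%). Of the 44 members with a pooled summit only, 28 had a summit in both replicate lists, 12 in replicate 1 alone and 4 in replicate 2 alone. The same split was not counted over all genes with a pooled summit only, so it is not shown to be particular to the members. Replicate 1 also had summits at more of all genes, at 48% against 37.7%. Since the authors used both replicates to define the optimal set, part of the match of the 19 bound members to the replicate lists is built in.

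**Figure D3:**
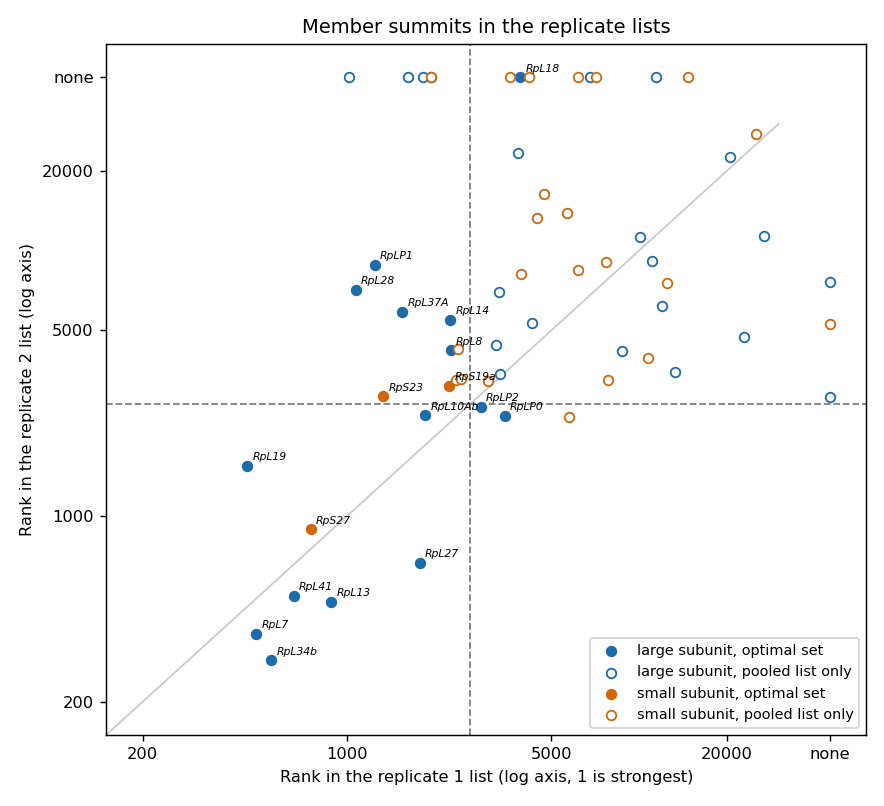
Rank of the summit matched within 200 bp in replicate 1 (x axis) and replicate 2 (y axis), both log axes with 1 the strongest, for 61 ribosomal protein genes with a pooled promoter summit. Points at "none" have no matched summit in that list, dashed lines mark rank 2644 and the diagonal marks equal rank; the 8 bound genes at lower left are among the strongest in both replicates, and RpL18 has no replicate 2 summit.

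Some members had strong replicate peaks but no pooled summit. RpL24 was among the strongest entries of both replicates, at 62.3 (rank 1234) in replicate 1 and 75.9 (rank 825) in replicate 2, while the nearest pooled summit was 3612 bp from the replicate 2 summit. RpL32, a common reference gene for fly transcript measurements, ranked 298 in replicate 1 with a signal of 112.3, the highest rank of any member there, and had no replicate 2 promoter summit. RpL3 (72.2, rank 874) and RpS24 (44.3, rank 2532) also had such a peak in replicate 1 only. RpL13A had one in replicate 1 (61.3, rank 1274) and a weaker one in replicate 2 (40.3, rank 3539). Such members numbered 6, or 20% of the 30 among the strongest peaks of replicate 1, near the 15.4% of all 1642 such genes, so the count is no result about ribosomal protein genes as such. They were singled out after their values were seen, and why the pooled list lacks them was not tested. Their promoters were not bare of the initiator, as the stretches for RpL3 (chr3R:11221744-11221913, plus strand) and RpL13A (chr3R:5624324-5624493, plus strand) show, with the TCT initiator in capitals.
RpL3: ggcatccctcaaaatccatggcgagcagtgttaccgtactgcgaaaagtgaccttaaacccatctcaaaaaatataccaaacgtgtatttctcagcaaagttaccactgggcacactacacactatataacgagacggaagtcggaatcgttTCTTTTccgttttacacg
RpL13A: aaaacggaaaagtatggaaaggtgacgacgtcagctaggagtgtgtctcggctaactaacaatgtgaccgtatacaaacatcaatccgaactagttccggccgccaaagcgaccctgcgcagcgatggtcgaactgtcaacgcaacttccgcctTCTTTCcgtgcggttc

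The summits of ribosomal protein genes sat close to the TSS. The median position of the strongest optimal promoter summit relative to the TSS, negative upstream, was -74 bp for the 19 bound members (quartiles -115.5 and -47.5) and -142 bp for all 1381 bound genes (quartiles -225 and -66). A distance of at most 100 bp from an own TSS was found for 12 of 19 (63.2%, all bound genes 27.2%), and in the pooled list for 39 of 63 members (61.9%, all such genes 28.3%). The summit was upstream of the TSS for 17 of the 19 (89.5%, all bound genes 85.6%). In the pooled list it was upstream for 46 of 63 members (73%), near the 75.4% of all genes with a pooled summit. These 63 include the 44 pooled-only members, of which 29 had it upstream (65.9%). By annotation 16 of the 19 summits were upstream of the gene, 2 in an untranslated exon (RpL7 and RpS23) and 1 in an intron (RpLP0). A single member summit, that of RpL38, lay in coding sequence, with a pooled signal of 26.8. Sonication gave fragments of 200 to 800 bp per the labels, which limits how finely a summit can be placed.

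**Figure D4:**
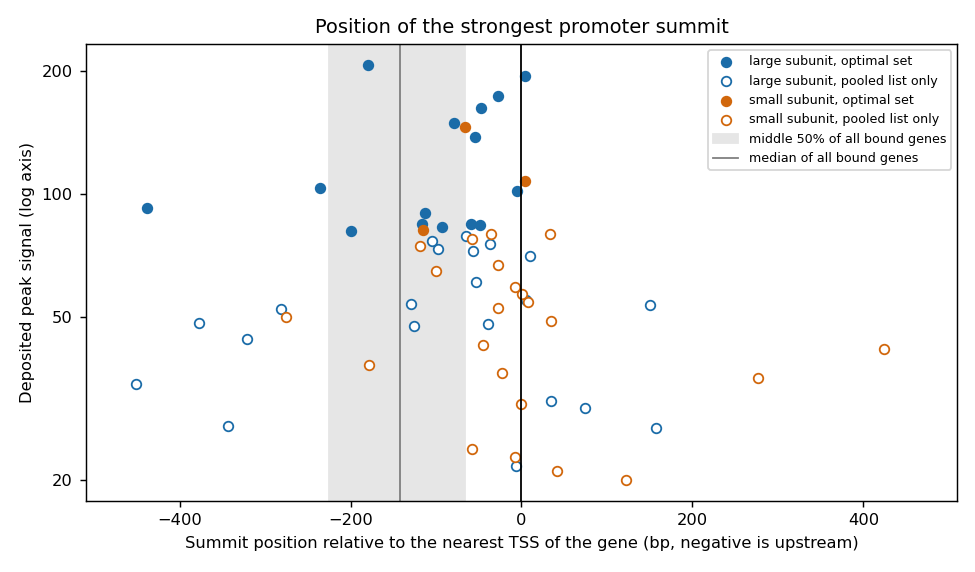
Position of the strongest promoter summit relative to the nearest TSS of the gene (bp, x axis, negative is upstream) against its deposited pooled signal (log y axis), for 61 ribosomal protein genes. Filled points are in the optimal set and colours give the subunit; the grey band is the middle of all bound genes, from -225 to -66 around a median of -142, and 11 of the 18 filled points lie within 100 bp of the TSS.

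Many of the bound members share their promoter with a neighbour transcribed the other way. A divergent TSS lay within 500 bp upstream of 37 of 92 members (40.2%, all genes 27.4%), and of 13 of 19 bound members (68.4%, all bound genes 48.6%), 11 of 44 pooled-only members (25%) and 13 of 29 members with no summit (44.8%). RpL7 stood 30 bp from Ripalpha, RpL13 84 bp from Dref, RpLP0 111 bp from CG7130, RpL14 127 bp from Nelf-E and RpS27 144 bp from Nup37. At RpL34b, RpL13, RpL19 and RpL28 the neighbour (CG8132 at 90 bp, Dref, CG3776 and eIF1) had the nearer TSS, and the same held in the pooled-only class for genes that include RpL23, RpL29, RpL35 and RpS21. At such promoters the peak lists do not tell which of the genes a summit belongs to. When each summit was given to its nearest TSS alone, 15 members remained bound, all of them among the 19, and the share of all genes fell to 7.66%.

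The TCT initiator was common in every class of ribosomal protein genes. A TCT initiator within 20 bases of the main TSS was present at 63 of 92 members (68.5%) and at 4.66% of all promoters. Its share was 73.7% in bound members (all bound genes 5.58%), 70.5% in pooled-only members and 62.1% in members without a summit. RpL7, RpL19, RpLP0, RpS23 and RpS27 were bound without it. In the promoter from 250 bases upstream to 50 downstream of the TSS, the DRE was present at 39.1% of members and 18% of all promoters. It was present at 9 of 19 bound members (47.4%, all bound genes 24%), 38.6% of pooled-only members and 34.5% of those with no summit. The M1BP motif was present at 14 members (15.2%, all promoters 7.79%). Of the 19 bound members 6 held it (31.6%, all bound genes 8.91%): RpL7, RpL19, RpL27, RpL37A, RpLP1 and RpS23. The E-box (CACGTG), the site of Myc and related factors, was present at 10 members (10.9%, all promoters 4.2%), all named for the large subunit, and this split was picked after seeing the counts and was not tested. Of motifs linked to Polycomb and Trithorax recruitment, the GAGA repeat (GAGAG) was rarer in members, at 17.4% against 30.2%, and the Pho core (GCCAT) was at 42.4% against 40.9%. A TATA box (TATAAA) was present in 44.6% against 45.5%. It was held by 12 of 19 bound members (63.2%, all bound genes 44.8%) and by 40.9% of pooled-only members. These motifs were searched on both strands, apart from the initiator; a match is a description of the letters and not evidence of a factor.

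**Figure D5:**
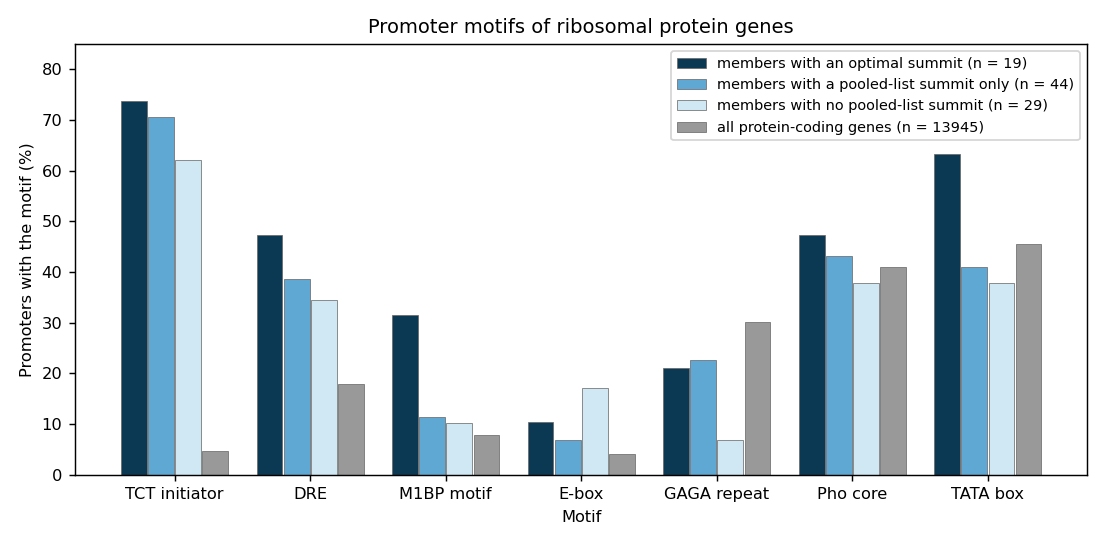
Share of promoters (%, y axis) that hold each of 7 motifs (x axis), for members with an optimal summit (n = 19), with a pooled summit only (n = 44), with none (n = 29) and for all 13945 protein-coding genes. Bars are counts without error bars; the TCT initiator is at 62.1% to 73.7% in the member classes and 4.66% in all genes.

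Several ribosomal proteins are encoded by a pair of genes, and the copies differed in their summits. RpS19a was bound and RpS19b had no pooled summit, and RpL10Ab was bound while RpL10Aa had none in any list. Among weaker summits RpS10b (49.9), RpS5a (35.5), RpL37-1 (60.9) and RpS28b (23.8) had one and RpS10a, RpS5b, RpL37-2 and RpS28a did not. RpL22 (72.5) exceeded RpL22-like (27.1), and RpS15Aa (rank 8852) exceeded RpS15Ab (rank 29250). RpS5b, RpS10a, RpS19b and RpL22-like are known as copies used mainly in the germ line. The tandem genes RpS14a and RpS14b, with TSSs 1156 bp apart, had separate summits of 59.1 and 74.5, and RpL34b (206.8) and RpL34a (78.9) both had one. These pairs were listed after the values were seen. The longest exact run that the promoters of a pair shared was 25 bases, for RpS15Aa and RpS15Ab, and 8 to 11 bases for the others.

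Members on arm 3R had a pooled summit less often than members on the other arms. Of the 23 there, 8 had one and 15 did not, which is near the 38.5% of all genes on 3R with one. Most genes of any kind on 3R thus lacked one. Over all arms 39.1% of all genes and 68.5% of members had one. Pooled summits were present at 13 of 15 members on X (all genes on that arm 36.5%) and 13 of 19 on 2L (38.1%). They were present at 16 of 20 on 2R (39.1%), 12 of 14 on 3L (42%) and at the single member on 4 (72.5%). In replicate 1, 16 of the 23 had a summit (69.6%), above the 48.7% of all genes on 3R and below the 83.7% of all members. In replicate 2 there were 6 (26.1%), below both the 37.2% of all genes on 3R and the 62% of all members. RpL10Aa, RpL24-like, RpL4, RpL6, RpS10a, RpS28a and RpS5b, which had no promoter summit in any list, are on this arm. The arm was singled out after the counts were seen. Members were short genes, with a median length of 1315 bp against 2166 bp for all genes, and 29 held a snoRNA gene (31.5%, all genes 0.602%), which is often carried in introns of ribosomal protein genes. Of these 29, 3 were bound (10.3%, near the 9.9% of all genes), 16 had a pooled summit only and 10 had none. Of all 84 genes with a snoRNA gene inside, the 29 members included, 25% were bound. In the whole pooled list the order was the other way, with a summit at 65.5% of the 29 and 60.7% of the 84.

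Genes that work with the ribosome were counted beside the 9.9% of all genes with an optimal and the 39.1% with a pooled promoter summit. Among 20 ribosome biogenesis genes, where the counts lie at these shares, 2 were bound, Ns2 (277.0), a nucleostemin family GTPase, and NHP2 (92.8), a protein of the snoRNP that makes pseudouridine, and 8 had a pooled summit. Of 7 elongation factor genes 1 was bound, eEF1alpha1 (139.7), which delivers tRNA to the ribosome, and eEF2 (70.1) and eEF5 (43.6) had a pooled summit. Of 4 genes for factors that regulate ribosomal protein genes in flies, Dref (162.5, the summit shared with RpL13), Trf2 (103.6) and M1BP (98.2) were bound, and Myc had no pooled promoter summit.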

How the data were processed

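Corto-GFP ChIP-seq of whole embryos gave 2 replicates of 1 group. The authors deposited narrowPeak lists on dm6, with 30000 entries for each replicate and for the pooled replicates, made with a control per the deposited notes, and an optimal set from the irreproducible discovery rate. The deposited signal of each peak is on a scale not given in the sources used here, as are the aligner, the caller and the threshold, so peaks were compared within a list only. The control was not analysed here. Summits came from the deposited offset within each peak. Coordinates are 1-based on dm6.

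TSSs came from Ensembl release 115 (BDGP6.54), with 19607 TSSs of 13945 protein-coding genes, and 99.5% of coding sequences began with ATG in the RefSeq genome of the same assembly. Summits within 500 bp of a TSS were assigned with Python 3.11.15, pandas 2.3.3 and numpy 2.4.6, and replicate summits within 200 bp were matched. The assignment was tested on simulated data. Members and lists were chosen with earlier results of these data known, and some genes are not reported here, although members among them stay in the counts. Named otherwise were all bound members, the 10 strongest with a pooled summit only, all without one, the P stalk genes, sta and nearer neighbouring genes; others were named after their values were seen. Alternatives were windows of 250 and 1000 bp, each replicate alone, the stronger 1322 optimal peaks, the nearest or most upstream TSS, matches within 100 or 500 bp and motifs around summits. Peaks in the strongest 2644 of both replicates were added after seeing the data. The 95% Wilson intervals cover counting error only.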

Additional observations from a re-analysis of the deposited data

How the results depend on the processing

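The count of 19 bound members fell to 8 in the stronger 1322 peaks of the optimal set (5.47% of all genes), of which 7 were large and 1 was a small subunit gene. With 1 replicate left out, the strongest 2644 entries of the other replicate list stood in for the optimal set. The count of bound members ranged from 13 to 30, at 13 without replicate 1 (8.78% of all genes) and 30 without replicate 2 (11.8%). The large subunit count then ranged from 11 to 21 around 16, and the small subunit count from 2 to 9 around 3, at 9 without replicate 2. Of the 19 bound members 11 remained without replicate 1 and 16 without replicate 2. Requiring the strongest peaks of both replicates, an alternative chosen after seeing the data, left 10 members, 9 of them among the 19. In 34 recomputed values the count moved by at most 1.5 times or the share or median stayed within its interval, so that 18 and 21 members were bound with windows of 250 and 1000 bp, 15 with the nearest TSS only and 19 with the most upstream TSS only. The cause of these differences was not tested. No paired analysis was possible because there is only 1 group. Without read counts, depth is unknown and sets no stated limit.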
